A study of Mus musculus with 4 samples.

Results

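The tumour suppressor gene Trp53, which encodes the transcription factor p53, and 9 genes that p53 is known to induce were followed in C8-D1A cells: Cdkn1a, Mdm2, Ccng1, Bax, Bbc3, Pmaip1, Sesn1, Zmat3 and Phlda3. They were taken by gene symbol, and all 10 were found among the 24169 genes of the deposited table. The rule uses no measured value. C8-D1A is an established mouse astrocyte line. RNA of the cells was sequenced after ribosomal RNA depletion, from 2 untreated libraries (control 1 and 2) and from 2 libraries of cells kept in 1 mM MBP for 24 h (MBP 1 and 2). The labels spell out the agent no further, and they mention no vehicle in the untreated group. The title of the series names DBP given to mothers, and monobutyl phthalate is the main metabolite of the plasticizer dibutyl phthalate. All 4 libraries come from the same line, and nothing in the labels says that those of a group are separate cultures, so p-values measure the spread between these libraries, which may be technical.

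In an unstressed cell p53 protein is made and destroyed continuously, because the ubiquitin ligase MDM2 marks it for degradation. DNA damage, blocked ribosome assembly or oncogene activity frees p53 from MDM2, and p53 then binds DNA as a tetramer and raises transcription of genes that halt the cell cycle, restrain growth signalling or open the mitochondrial route to cell death. Mdm2 is itself one of these genes, which closes a feedback loop. Because p53 is controlled mainly as a protein, its activity is usually read from the RNA of its targets and not from that of Trp53.

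p53 recognises a pair of short half-sites in tandem, each with the core CNNG, in which both N are A or T, flanked by purines before and pyrimidines after. RefSeq promoter windows (GRCm38.p6), from 250 bases before to 50 bases after a transcription start, were found for 8 of the 10 genes, 12 windows in all. Zmat3 and Pmaip1 had none. The p53 half-site consensus, which reads the same on both strands, was matched without mismatch in 6 of the 12 windows and in 8.36% of all 32851 windows of that length. A pair of half-sites with intact cores, a spacer of at most 13 bases and at most 2 mismatches in all was matched in 3 of the 12 and in 2.12% of all windows. A half-site of such a pair can also be one of the matches without mismatch. The runs below are shown because they hold these matches. They are written 5′ to 3′ on the strand of the gene, with the half-sites in capitals.
Trp53: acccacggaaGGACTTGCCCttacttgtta
Cdkn1a: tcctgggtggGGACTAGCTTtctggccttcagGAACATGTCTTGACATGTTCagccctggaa
Mdm2: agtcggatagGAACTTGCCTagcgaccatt
Ccng1: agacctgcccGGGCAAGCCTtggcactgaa
Bax: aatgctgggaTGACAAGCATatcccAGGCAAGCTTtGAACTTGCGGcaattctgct
Sesn1: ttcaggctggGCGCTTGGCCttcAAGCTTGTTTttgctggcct

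The Cdkn1a run (chr17:29090896-29090957, plus strand) holds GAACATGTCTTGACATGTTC, a pair of half-sites with no spacer and 1 mismatch. It begins 51 bases before the upstream start of Cdkn1a and 2841 bases before the downstream start, whose own window held no match. The other runs are chr11:69580274-69580303 (Trp53, plus strand), chr10:117710925-117710954 (Mdm2, minus), chr11:40755452-40755481 (Ccng1, minus), chr7:45467069-45467124 (Bax, minus) and chr10:41887243-41887285 (Sesn1, plus, at the downstream of 2 starts). The 3 windows of Bbc3 and the 1 of Phlda3 held neither kind of match, which says only that these letters are not in these windows. The matches printed above are likewise matches of letters, and binding of p53 was not measured. Those of Trp53, Mdm2 and Ccng1 are single half-sites without a pair. The deposited table gives 1 value per gene, so the use of alternative starts cannot be read from it.

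**Figure D1:**
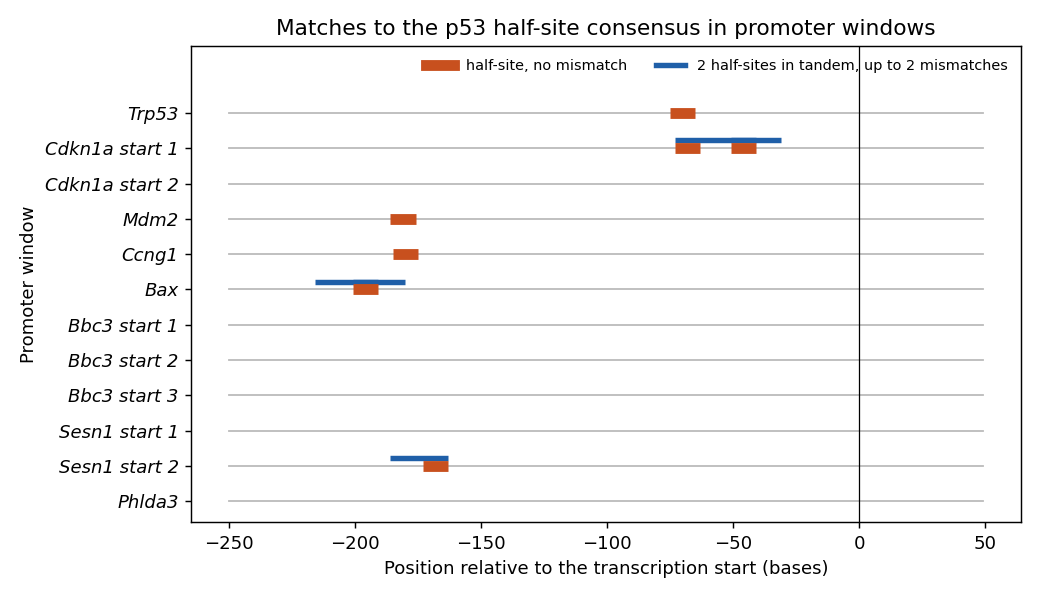
Matches to the p53 half-site consensus in the 12 promoter windows of 8 genes, by position relative to the transcription start in bases. Orange blocks are half-sites without mismatch, and blue bars (overlapping pairs merge) are tandem pairs with at most 2 mismatches, which occur upstream of Cdkn1a, Bax and Sesn1.

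The whole table sets the frame. Libraries held 23571000 to 25907000 reads, a depth worked out from the smallest steps between FPKM values. Of 12403 genes with at least 1 FPKM (read fragments scaled to gene length and library depth) in at least 2 libraries, limma called 0 at an adjusted p under 0.05, which is 0% of the genes tested. Limma-voom on reads recovered from the FPKM values called 18 of 14512, none of them a member. At an unadjusted p under 0.05 there were 1201, or 9.68%, with 473 (3.81%) higher and 728 (5.87%) lower in MBP. The split was 533 to 507 after rescaling to TPM, 555 to 647 after quantile normalization and 332 to 831 on the 10366 protein-coding genes. Of 10 astrocyte markers 3 passed the filter (S100b, Sox9 and Glul), while Gfap, Aqp4, Slc1a2, Slc1a3, Aldh1l1, Gja1 and Aldoc lay under it. The summed astrocyte markers stood at 21.1 to 22.4 FPKM in controls and 21.4 to 22.1 in MBP. The oligodendrocyte lineage markers, mostly Sox10, stood at 113 to 119 and at 105 in both MBP libraries, and the neuron markers, mostly Tubb3, at 32.6 to 35.4 and 25.5 to 25.9, although the neuron marker Map2 stood at a log2 fold change of 0.09. The summed microglia markers, mostly Tmem119, were also lower in MBP without overlap (6.04 to 6.43 and 5.1 to 5.71). Under the filter, the microglia marker Cx3cr1 went the other way, with 0.201 and 0.122 FPKM in controls against 0.334 and 0.248 with MBP. The fibroblast and pericyte markers (7.23 to 7.8 and 6.53 to 6.95) were lower in MBP without overlap as well, and the endothelial markers overlapped. Of the 6 fibroblast and pericyte markers listed, 1 passed the filter. Among single genes, 23.5% of those tested were lower in MBP without overlap. The part of the cell type markers in the values below was not tested. In bulk RNA, fewer cells that express a gene and less RNA per cell cannot be told apart.

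RNA of p53 and of most of its targets was present in every library, and no member differed between MBP-treated and untreated cells beyond the test. In limma's fit 0 of the 9 tested members passed, with adjusted p between 0.503 and 0.876. Their log2 fold changes, MBP minus control on log2(FPKM + 1), lay between -0.17 for Bbc3 and 0.08 for Zmat3, with a median of 0.03 against -0.0048 over all tested genes. Of the 9, 5 had higher and 4 lower values in MBP. At an unadjusted p under 0.05 there was 1 of 9 (11.1%), near the 9.68% of all genes, and it was lower in MBP. Groups did not overlap for 4 of 9 (44.4%), where the same held for 44.8% of all tested genes. For 6 of the 9 the difference between group means was smaller than the difference between libraries of one group. The share of all tested genes for which this holds was not worked out.

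The order of levels was Trp53, Phlda3, Cdkn1a, Mdm2, Ccng1, Zmat3, Bax, Sesn1, Bbc3 and Pmaip1, by mean FPKM, a scale that divides by gene length. The lowest of the 4 libraries for each gene stood above the highest for the next gene throughout, except that Zmat3 (12.9 to 14.1 FPKM) and Bax (11.961 to 14.671) overlapped. Mean levels ran from 36.7 FPKM for Trp53, above 91.0% of tested genes, to 2.36 for Sesn1 (above 19.1%), 1.15 for Bbc3 (above 4.02%) and 0.0198 for Pmaip1.

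**Figure D2:**
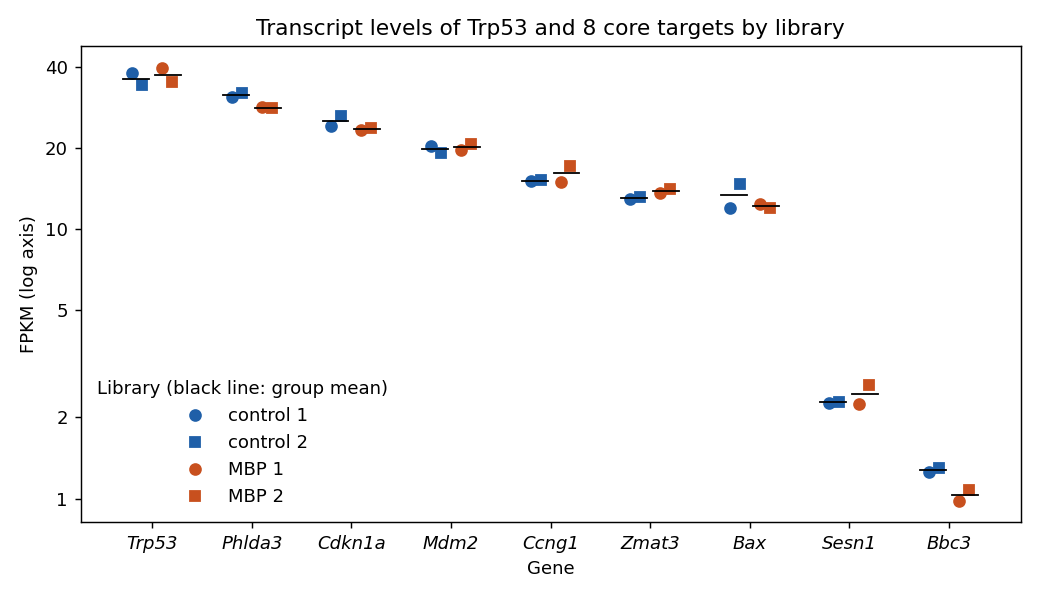
FPKM of Trp53 and 8 targets on a log axis, in control 1 and 2 (blue) and MBP 1 and 2 (orange), with group means as black lines. Genes differ widely in level, from 1.15 FPKM for Bbc3 to 36.7 for Trp53, while libraries of the 2 groups lie close together for each gene. Pmaip1, at 0 to 2 reads, is not drawn.

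Trp53 (ENSMUSG00000059552, GRCm38 chromosome 11, 69580359 to 69591873, plus strand) had 38.1 and 34.1 FPKM in controls against 39.7 and 35.0 with MBP. Control 1 and MBP 1 were high, control 2 and MBP 2 were low, and the groups overlapped. The log2 fold change was 0.05 (95% interval -0.18 to 0.27, limma adjusted p = 0.861). The neighbouring gene Wrap53, read in the opposite direction, lies with its start toward that of Trp53, and 103 bases separate the pair in the table. It stood at 6.79 and 7.63 FPKM in controls against 7.09 and 6.80 with MBP.

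Mdm2, the ligase that degrades p53 and is also its target (chromosome 10, 117688875 to 117710758, minus strand), had 20.3 and 19.2 FPKM in controls against 19.6 and 20.7 with MBP. The groups overlapped, with MBP 2 highest and control 2 lowest. Its log2 fold change was 0.03 (95% interval -0.13 to 0.19, limma adjusted p = 0.876). Relative to Trp53 in the same library, Mdm2 stood at 0.533 and 0.561 in controls and 0.494 and 0.591 in MBP, a ratio of FPKM values that overlapped as well.

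Cdkn1a and the cyclin gene Ccng1 did not share a sign. Cdkn1a encodes p21, the inhibitor of cyclin-dependent kinases through which p53 stops the cell cycle (chromosome 17, 29090979 to 29100722, plus strand). It had 24.2 and 26.2 FPKM in controls against 23.2 and 23.7 with MBP. Both MBP libraries lay below both controls, and the group means differed by less than the controls did. The log2 fold change was -0.10 (95% interval -0.25 to 0.06, limma adjusted p = 0.61). As a fold on the same scale, that interval runs from 0.84 to 1.04, so a rise above 1.04-fold lay outside it. The log2 fold change was -0.15 without control 1 and -0.04 without control 2. Ccng1, or cyclin G1, a p53 target that recruits a phosphatase to MDM2 (chromosome 11, 40748552 to 40755311, minus strand), had 15.1 and 15.2 FPKM in controls against 15.0 and 17.2 with MBP. MBP 2 alone stood above the other libraries, and the log2 fold change was 0.08 (95% interval -0.12 to 0.28, limma adjusted p = 0.723). It was -0.01 without MBP 2.

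The cell death members ranged from moderate to nearly absent. Bax, which forms pores in the outer mitochondrial membrane (chromosome 7, 45461697 to 45466898, minus strand), had 11.961 and 14.671 FPKM in controls against 12.423 and 12.001 with MBP. Control 2 stood above the other 3 libraries, which lay within 0.462 FPKM of each other. The log2 fold change was -0.11 (95% interval -0.37 to 0.15, limma adjusted p = 0.71), and 0.03 without control 2.

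Bbc3 encodes PUMA, a BH3-only protein that frees BAX and BAK from their inhibitors (chromosome 7, 16308393 to 16318205, plus strand). It had 1.26 and 1.30 FPKM in controls against 0.983 and 1.07 with MBP, from 65, 65, 50 and 59 reads. Both MBP libraries lay below both controls, and exact Poisson 95% intervals, which cover counting error only, ran from 50.2 to 82.8 reads for each control and from 37.1 to 65.9 and 44.9 to 76.1 reads for MBP 1 and MBP 2. These intervals overlap. The log2 fold change was -0.17 on log2(FPKM + 1) (95% interval -0.45 to 0.12, limma adjusted p = 0.622). At this low level the added 1 shrinks the change, and with 0.01 added in its place it was -0.31, a fold of 0.805 with a 95% interval of 0.543 to 1.19.

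Pmaip1 encodes NOXA, a BH3-only protein that binds MCL1. Its value came from 1 and 2 reads in controls against 2 and 0 with MBP, or 0.0155, 0.0321, 0.0316 and 0 FPKM. A count of 0 in MBP 2 allows up to 3 reads, the one-sided 95% limit, or 0.0438 FPKM. Pmaip1 lay under the filter, and a difference between groups was not detectable at this depth.

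Sesn1, Zmat3 and Phlda3 act on growth signalling and RNA. Sesn1 encodes sestrin 1, which restrains mTORC1 through the GATOR complexes (chromosome 10, 41809935 to 41908424, plus strand). It had 2.27 and 2.29 FPKM in controls against 2.24 and 2.64 with MBP. MBP 2 alone was high, with 272 reads against 214 to 220 in the other libraries, and it was also the deepest library. Exact Poisson 95% intervals, for counting error only, were 192 to 251 and 187 to 246 reads in controls. They were 186 to 245 reads in MBP 1 and 241 to 306 in MBP 2, so all overlapped. The log2 fold change was 0.07 (95% interval -0.18 to 0.32, limma adjusted p = 0.819). Without MBP 2 it was -0.02.

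Zmat3, a zinc-finger RNA-binding protein that regulates splicing and RNA stability (chromosome 3, 32334792 to 32366014, minus strand), had 12.9 and 13.2 FPKM in controls against 13.6 and 14.1 with MBP. It was the 1 member whose MBP libraries both lay above both controls, with a log2 fold change of 0.08 (95% interval -0.06 to 0.22, limma adjusted p = 0.633). The same pattern, with no overlap and higher values in MBP, held for 21.3% of all tested genes.

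Phlda3, a PH-domain protein that competes with AKT for membrane lipids (chromosome 1, 135766119 to 135769136, plus strand), had 31.0 and 32.1 FPKM in controls against 28.3 and 28.1 with MBP. Both MBP libraries lay below both controls, by more than the libraries of either group differed. The log2 fold change was -0.16 (95% interval -0.29 to -0.02). It had the lowest unadjusted p of the members (0.0288), but limma's adjusted p was 0.503. A value lower in MBP at an unadjusted p under 0.05 was found for 5.87% of all tested genes. With protein-coding genes tested alone, it was found for 831 of 10366.

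**Figure D3:**
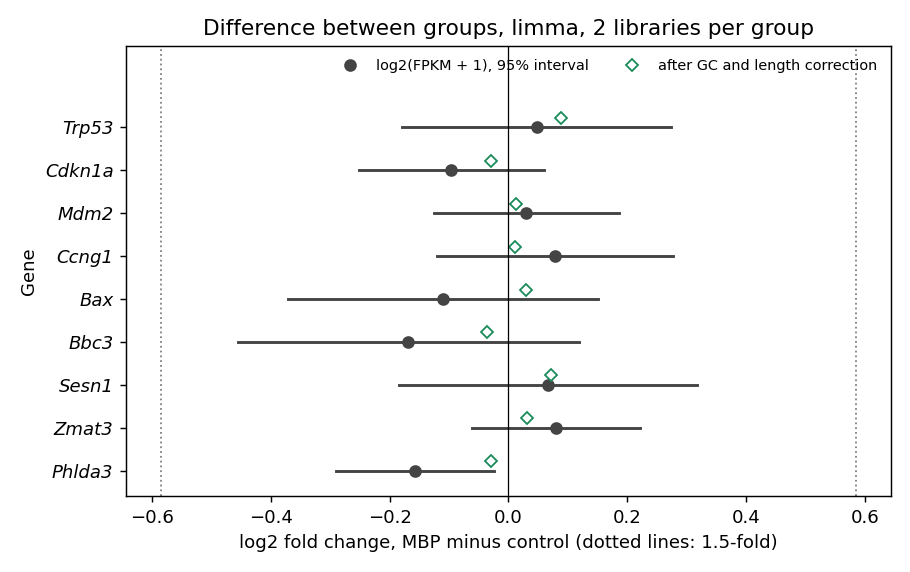
Log2 fold change, MBP minus control, of the 9 tested genes with limma's 95% interval, and the same value after correction for GC content and length (open diamonds). The scale is log2(FPKM + 1), which shrinks the change of Bbc3 and Sesn1. On it every interval lies inside the dotted lines at 1.5-fold, and all but that of Phlda3 include 0.

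On the log2(FPKM + 1) scale the 95% intervals of the 9 tested members reached from a fold of 0.73 (Bbc3) to 1.25 (Sesn1). With 0.01 added, the intervals were wider, from 0.543 to 1.19 for Bbc3, whose lower end then passed a 1.5-fold difference, and from 0.837 to 1.36 for Sesn1. For the 7 members with a mean above 10 FPKM, the highest upper end on the first scale was 1.21, for Trp53 and Ccng1.

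The sign of a member's difference went with the GC content of its transcript. The 4 members with lower values in MBP were Cdkn1a (54.4% GC in the longest transcript), Phlda3 (62.6%), Bax (63.5%) and Bbc3 (65.2%), and the 5 with higher values lay at 40.8% (Ccng1) to 53.3% (Trp53). Across the 9 genes, which are not independent replicates and share the same 4 libraries, Spearman's rho between GC content and log2 fold change was -0.85. Across 12389 tested genes it was -0.442, and by eighths of GC content the median log2 fold change went from 0.08 (lowest GC) to -0.09 (highest GC). After a loess correction of each library for GC content and length, the 9 members lay between -0.04 and 0.09, and their rho with GC content was -0.4. Phlda3 stood at -0.03, Bbc3 at -0.04, Cdkn1a at -0.03, Bax at 0.03, Zmat3 at 0.03 and Trp53 at 0.09. The correction takes out any difference between libraries that goes with GC content or length, whatever its source. That source was not tested.

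**Figure D4:**
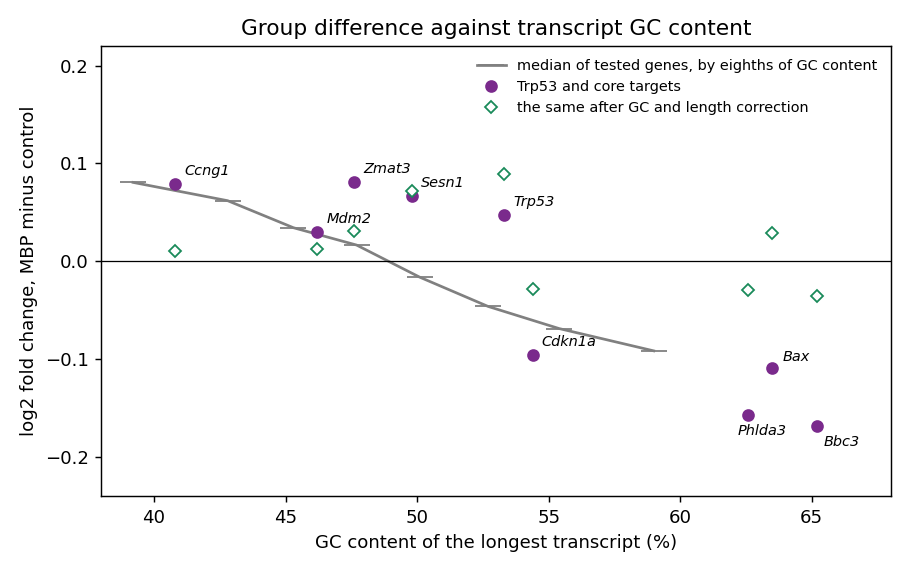
Log2 fold change of the 9 tested members (purple) against the GC content of the longest transcript, with the median of all tested genes in eighths of GC content (grey). The members go from 0.08 for Ccng1 (40.8% GC) to -0.17 for Bbc3 (65.2%), and after correction (open diamonds) they lie between -0.04 and 0.09.

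Genes that control p53, and its relatives p63 and p73, were taken as a list of 21, with 20 in the table and 18 tested. In limma's test 0 passed in either direction. Values were higher in MBP for 12 and lower for 6, with a median log2 fold change of 0.04. Mdm4, the MDM2 relative that masks the activation domain of p53, had 7.19 and 6.81 FPKM in controls against 8.16 and 8.42 with MBP. Both MBP libraries lay above both controls, with a log2 fold change of 0.22 (limma adjusted p = 0.503), and 0.13 after the GC and length correction. The ratio of Mdm2 to Mdm4 FPKM was 2.82 and 2.81 in controls and 2.41 and 2.46 in MBP. It was 1 of 10 such ratios computed within libraries, of which 5 did not overlap between groups. Among single genes, the groups did not overlap for 44.8% of those tested. With 2 against 2 libraries no two-sided exact test that permutes the libraries can give a p under 0.333.

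Cdkn2a, whose ARF product holds MDM2 away from p53, had 24.1 and 23.9 FPKM in controls against 21.8 and 23.7 with MBP. That value is for the whole gene, and the share that belongs to ARF cannot be read from it. The log2 fold change of Cdkn2a was -0.07 (limma adjusted p = 0.686), and 0.05 after the GC and length correction. It was -0.01 without MBP 1 and -0.13 without MBP 2. Rpl11, a ribosomal protein that binds MDM2 when ribosome assembly fails, had 71.6 and 71.7 FPKM in controls against 64.0 and 61.8 with MBP, which gave a log2 fold change of -0.18 (limma adjusted p = 0.503), and -0.11 after the correction. Ribosomal protein genes have near-identical pseudogenes, so its value is uncertain. Kat5, an acetyltransferase of p53, stood at -0.13 (limma adjusted p = 0.523), at -0.07 after the correction and at -0.09 without control 2. Trp63 (0 and 1 reads in controls, 2 and 2 with MBP) and Trp73 (5 and 5 reads in controls, 4 and 5 with MBP) were close to absent, and neither was tested.

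A wider list of 46 known p53 targets, with 43 in the table and 35 tested, also gave 0 genes past limma's threshold. Values were lower for 21 and higher for 14, with a median log2 fold change of -0.04, and -0.03 after the GC and length correction. Of the 35, 5 were lower and 0 higher at an unadjusted p under 0.05, where 5.87% of all tested genes were lower and 3.81% higher. With protein-coding genes tested alone, 831 of 10366 were lower and 332 higher. The 5 were Triap1, Trp53i13, Abhd4, Sertad1 and Gtse1. Triap1, a small inhibitor of the apoptosome, had 3.02 and 3.04 FPKM in controls against 2.19 and 2.13 with MBP, the lowest unadjusted p of the list (0.0071, limma adjusted p = 0.486). Its log2 fold change was -0.35, and -0.30 after the GC and length correction. Trp53i13, a p53-induced membrane protein, stood at -0.25 and at -0.12 after the correction, and Gtse1, a protein of dividing cells that moves p53 out of the nucleus, at -0.17 and -0.11. Abhd4, a lipid hydrolase, and Sertad1, a CDK4-binding protein, stood at -0.20 and -0.27, and at -0.14 and -0.15 after it. Without control 2, Sertad1 was at -0.15.

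The partners of p21 and the other inhibitors of cyclin-dependent kinases gave 0 of 21 tested genes past limma's threshold, with 8 higher, 13 lower and a median log2 fold change of -0.05. Cdkn1b, the relative of p21 known as p27, had 26.1 and 24.2 FPKM in controls against 30.4 and 28.4 with MBP. Its MBP libraries both lay above both controls, the opposite side from Cdkn1a. The log2 fold change of Cdkn1b was 0.22 (limma adjusted p = 0.503). After the GC and length correction Cdkn1b stood at 0.16 and Cdkn1a at -0.03. Cdk6, a kinase of the entry into the cell cycle, stood at 0.21 (0.12 after the GC and length correction). E2f1, a transcription factor of the same step, stood at -0.23 (-0.15), and the cyclin Ccnd3 at -0.15 (-0.09). For Cdk6, E2f1 and Ccnd3 limma's adjusted p was 0.496, 0.496 and 0.514. At an unadjusted p under 0.05, 2 of the 21 were higher (Cdk6 and Cdkn1b) and 2 lower (E2f1 and Ccnd3). Over all tested genes 3.81% were higher and 5.87% lower. Ccng2, the paralog of Ccng1, had 4.45 and 4.46 FPKM in controls against 3.72 and 4.58 with MBP, with a log2 fold change of -0.09, which was 0.03 without MBP 1 and -0.15 after the correction.

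Among the BCL2 family and the apoptosome, on which Bax, Bbc3 and Pmaip1 act, 0 of 14 tested genes passed, with 8 higher and 6 lower and a median log2 fold change of 0.01. Bak1, the other pore-forming protein, had 60.2 and 62.1 FPKM in controls against 71.8 and 67.0 with MBP. It stood above Bax in every library, with a log2 fold change of 0.18 (limma adjusted p = 0.503), and 0.26 after the GC and length correction. Bad, a BH3-only protein, stood at -0.16, at -0.07 after the correction and at -0.11 without control 1. The ratio of Bax to Bcl2l1, its main survival antagonist BCL-XL, was 0.317 and 0.356 in controls and 0.331 and 0.318 in MBP, which overlapped. The ratio of Bax to Bak1 was 0.199 and 0.236 in controls and lower in both MBP libraries, at 0.173 and 0.179. That of Bbc3 to Mcl1, the survival protein which NOXA binds, was 0.0211 in both controls and lower in MBP, at 0.015 and 0.0165. It rests on 65 and 65 Bbc3 reads in controls and 50 and 59 in MBP. After the GC and length correction the log2 fold change was -0.04 for Bbc3 and 0.11 for Mcl1. Of the 10 ratios computed, 5 did not overlap between groups.

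Around the sestrins, 0 of 16 tested genes of the GATOR and mTOR machinery passed, with 8 higher and 8 lower and a median log2 fold change of -0.0005. Sesn2, the paralog that also responds to other stresses, had 8.18 and 8.78 FPKM in controls against 8.39 and 9.16 with MBP, and Sesn3 had 2.03 and 1.96 against 2.23 and 2.10. Their log2 fold changes were 0.04 and 0.08 (limma adjusted p = 0.842 and 0.761). Corrected for GC content and length, Sesn2 stood at 0.12 and Sesn3 at 0.0001. The uncorrected value of Sesn2 turned negative without control 1 or without MBP 2, and that of Sesn3 was 0.05 without MBP 1. Ddit4, a stress-induced inhibitor of mTORC1 that p53 can induce, had 3.93 and 4.25 FPKM in controls against 2.90 and 3.61 with MBP, which gave a log2 fold change of -0.26 (limma adjusted p = 0.517). It was -0.14 without MBP 1, and -0.17 after the GC and length correction. Nprl2, a GATOR1 subunit, stood at -0.22, and Sec13, a GATOR2 subunit, at -0.10 (-0.06 without control 2 and -0.07 after the correction).

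**Figure D5:**
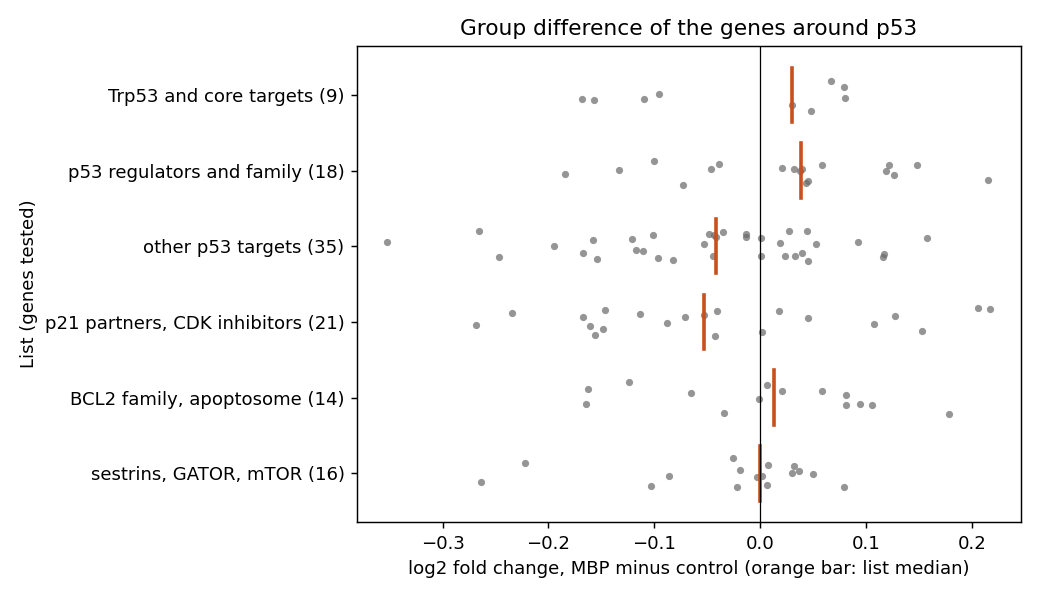
Log2 fold change, MBP minus control, of each tested gene in 6 lists around p53, with the list median as an orange bar. Medians lie between -0.05 and 0.04, and single genes between -0.35 (Triap1) and 0.22 (Cdkn1b).

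The deposited annotation offers another view of the pathway, taken up after the values were seen. Its biological process terms name signalling by the p53 class mediator for 161 genes, of which 101 were tested, 7 of them members. Values were higher in MBP for 59 and lower for 42, with a median log2 fold change of 0.03, and 0 passed limma's test. At an unadjusted p under 0.05, 4 of the 101 were lower and 1 was higher, against 5.87% and 3.81% of all tested genes. Groups did not overlap for 22 of the 101 with higher and 23 with lower values, near the 21.3% and 23.5% of all tested genes.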

How the data were processed

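RNA of 4 C8-D1A libraries was sequenced after ribosomal RNA depletion with a directional kit, per the labels' protocols. Per the submitters' processing notes, bcl2fastq and HISAT2 were run and the genome was GRCm38. How reads were counted, with or without strand and on which annotation, is not given in the sources used here. FPKM is the unit the authors deposited, for 24169 genes. Columns were matched to samples by title, and replicates were numbered 1 and 2 in accession order, which pairs nothing. Exon lengths and GC content came from GENCODE mouse release M21, which held 24121 of the gene identifiers. FPKM times exon length gave whole numbers of reads, within 0.05, for at least 99.95% of values of single-exon genes and 93.8% to 94.0% of all values under 1000 reads. Reads in the text were recovered this way. Those of Pmaip1 are rounded, since the annotation used here gives it another length, and the same holds for Cdkn1a, for which none are given. No molecular identifiers are described, so reads are not independent molecules.

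Values were tested as log2(FPKM + 1) for the 12403 genes that reached 1 FPKM in 2 or more libraries, using limma 3.58.1 in R 4.3.3 (eBayes with a trend, two-sided), with Benjamini-Hochberg adjustment over all tested genes and a threshold of 0.05. Alternatives were other pseudocounts, filters, scalings and spread models, leaving out each library, protein-coding genes alone, a GC and length correction (loess, span 0.5) and limma-voom on recovered reads (mean of 10 or more per gene). The members, the lists and the alternatives were chosen with earlier results of these data known. Named genes are the members, up to 6 genes per list with an unadjusted p under 0.05 (or the 3 lowest), and 7 paralogs and partners (Mdm4, also named by its list, Cdkn2a, Sesn2, Sesn3, Ccng2, Trp63 and Trp73). Of the genes so named, 1 is not reported here. Others (Wrap53, Bcl2l1) were named for their position or their ratio to a member. Listed symbols without a row were not analysed here.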

Additional observations from a re-analysis of the deposited data

How the results depend on the processing

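The 9 tested members stayed short of limma's threshold in every alternative that tested them. Cdkn1a, Bbc3, Zmat3 and Phlda3 kept their sign throughout, within -0.15 to -0.03, -0.31 to -0.04, 0.03 to 0.11 and -0.18 to -0.03. These are the 4 members whose groups did not overlap, as held for 44.8% of all tested genes. For such genes, leaving out a library or changing the pseudocount cannot turn the sign, so only the other alternatives could have done so. With single libraries left out, log2 fold changes ran from -0.0403 to 0.1357 for Trp53 (negative without control 2 or MBP 1), -0.0094 to 0.07 for Mdm2 (without control 2 or MBP 2), -0.0131 to 0.1714 for Ccng1 and -0.016 to 0.149 for Sesn1 (both without MBP 2). The range was -0.2464 to 0.0275 for Bax (positive without control 2), -0.0135 to 0.1015 for Sesn2 (negative without control 1 or MBP 2) and -0.2081 to 0.0326 for Ccng2 (positive without MBP 1). The GC and length correction turned Bax to 0.0291 and Cdkn2a to 0.051. Genes changed by MBP stayed at 0 except with limma-voom on recovered reads, which called 18 of 14512, none a member. The cause was not tested. The 1201 genes at an unadjusted p under 0.05 became 2254 without control 1, 948 without control 2, 601 without MBP 1 and 712 without MBP 2. Pmaip1, Trp63 and Trp73 were tested only without a filter, where Pmaip1 stood at -0.01 (limma adjusted p = 0.91). No paired analysis was possible because the labels give no number that pairs libraries across groups. Read depth limits Bbc3 and Pmaip1.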
